A study of Mus musculus with 25 samples.

Results

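The comparison of high-fat diet (HFD) with control diet in the liver, averaged over both genotypes, used all 25 libraries of the series: 13 on HFD and 12 on control diet. The members are libraries chosen by their labels, and the difference is the mean of the 2 HFD groups minus the mean of the 2 control-diet groups, so that each genotype weighs the same. PolyA RNA was sequenced from flash-frozen liver of mice of strain C57BL6/J, all male and aged 24 months, labelled as knockouts of p53 (p53KO) or of Rosa26 (Rosa26KO). The groups were Control_Rosa26KO (6 libraries), HFD_Rosa26KO (6), Control_p53KO (6) and HFD_p53KO (7). The labels do not state how or in which cells the knockouts were made, what the diets contained or how long they were fed, and no group is an unmodified mouse. They also do not say that each library is 1 animal, and p-values then measure the spread between these samples. Total counts ran from 16324283 to 21501281 per library, and levels are given as CPM, counts scaled to the size of each library and not corrected for gene length.

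A liver supplied with much dietary fat stores triglyceride in droplets coated by perilipins and CIDE proteins. The nuclear receptor PPARG and its target CD36 are known to favour this storage, while PPARA drives mitochondrial and peroxisomal fatty acid oxidation. Fatty acids made in the liver come from acetyl-CoA through enzymes induced by SREBP1c and ChREBP, and cholesterol through enzymes induced by SREBP2 when sterols are low. Interferon-stimulated genes, which encode antiviral proteins, often carry a response element with the core GAAA, 2 further bases and GAAA again, that IRF and STAT factors bind.

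The promoters below are shown because they belong to the lists with the largest share of members that rose or fell, interferon-stimulated genes and cholesterol synthesis genes. They are RefSeq sequences on GRCm38.p6, from 250 bases before to 50 bases after the gene start, of the called members of smallest p with 1 window and at least 1 match. In the first 3 the capitals mark this core (GAAA, any 2 bases, GAAA) on either strand, with overlapping matches joined in Isg15 and Oas1g, and in the last 3 they mark CCAAT on either strand, the box bound by NF-Y. The windows lie at chr4:156200769-156201068 on the minus strand (Isg15), chr4:40239776-40240075 on the minus strand (Ddx58), chr5:120887564-120887863 on the minus strand (Oas1g), chr19:6067801-6068100 on the minus strand (Tm7sf2), chr10:76531355-76531654 on the plus strand (Lss) and chr9:42264251-42264550 on the minus strand (Sc5d).
Isg15: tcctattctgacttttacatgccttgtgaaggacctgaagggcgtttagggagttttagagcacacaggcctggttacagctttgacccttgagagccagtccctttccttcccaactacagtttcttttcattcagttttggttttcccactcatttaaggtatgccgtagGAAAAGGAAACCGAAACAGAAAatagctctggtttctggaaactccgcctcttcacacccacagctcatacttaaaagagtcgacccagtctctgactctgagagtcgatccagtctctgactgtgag
Ddx58: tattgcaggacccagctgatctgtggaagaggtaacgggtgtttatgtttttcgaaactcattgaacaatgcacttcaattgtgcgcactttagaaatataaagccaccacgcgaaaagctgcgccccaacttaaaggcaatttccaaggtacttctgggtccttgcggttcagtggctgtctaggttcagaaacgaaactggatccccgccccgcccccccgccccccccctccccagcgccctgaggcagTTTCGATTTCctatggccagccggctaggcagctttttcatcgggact
Oas1g: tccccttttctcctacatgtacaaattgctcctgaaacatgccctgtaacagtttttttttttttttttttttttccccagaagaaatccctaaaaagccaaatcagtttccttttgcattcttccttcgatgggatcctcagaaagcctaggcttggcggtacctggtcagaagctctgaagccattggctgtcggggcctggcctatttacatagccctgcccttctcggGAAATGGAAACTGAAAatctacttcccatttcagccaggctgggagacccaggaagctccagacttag
Tm7sf2: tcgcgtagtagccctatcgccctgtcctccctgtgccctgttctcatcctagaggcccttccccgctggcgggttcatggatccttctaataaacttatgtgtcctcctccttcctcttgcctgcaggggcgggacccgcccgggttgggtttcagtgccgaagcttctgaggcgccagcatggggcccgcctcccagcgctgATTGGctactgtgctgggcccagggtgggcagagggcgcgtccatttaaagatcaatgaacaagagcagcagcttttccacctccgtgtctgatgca
Lss: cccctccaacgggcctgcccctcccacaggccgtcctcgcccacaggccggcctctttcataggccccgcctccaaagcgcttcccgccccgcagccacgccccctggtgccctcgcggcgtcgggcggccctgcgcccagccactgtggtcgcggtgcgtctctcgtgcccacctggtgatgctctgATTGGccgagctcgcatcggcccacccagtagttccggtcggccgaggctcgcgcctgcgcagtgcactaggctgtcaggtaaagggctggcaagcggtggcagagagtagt
Sc5d: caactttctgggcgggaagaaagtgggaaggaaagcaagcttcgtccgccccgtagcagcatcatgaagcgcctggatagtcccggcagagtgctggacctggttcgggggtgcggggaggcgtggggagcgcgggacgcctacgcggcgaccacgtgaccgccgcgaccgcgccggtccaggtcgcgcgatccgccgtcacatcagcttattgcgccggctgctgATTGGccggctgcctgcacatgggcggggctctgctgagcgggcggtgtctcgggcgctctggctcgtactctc

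The core of the interferon response element was present in 3.44% of 32851 RefSeq promoter windows of this length. Among the interferon-stimulated genes, 31 of 45 had a window and 19 of these 31 held the motif, 12 of them among the 19 called genes with a window. Counted by window, as the 3.44% is, 20 of their 35 windows held it. Isg15 held 3 overlapping matches, the first base of each lying 78, 72 and 66 bases before the start. CCAAT was present in 37.4% of all windows. Of the cholesterol synthesis genes 17 of 25 had a window and 16 of the 17 held CCAAT, 10 of the 11 called genes with a window among them. Counted by window, as the 37.4% is, 16 of their 20 windows held it. These matches are a description of the letters in the windows.

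Over all genes, 1372 of 14133 tested passed an adjusted p of 0.05 for the diet average in edgeR's quasi-likelihood test, 9.71% of those tested. Of these, 656 were higher on HFD (4.64%) and 716 were lower (5.07%). The median absolute log2 fold change of the called genes was 0.47, and 121 rose and 110 fell by more than 2-fold. Of the 1372, 884 passed in neither genotype when tested alone, where 213 genes passed in Rosa26KO (1.51%) and 405 in p53KO (2.87%). The difference between the diet effects of the genotypes passed for 0 genes (0%) in edgeR, where 1221 had an unadjusted p under 0.05, for 0 by limma voom and for 5 by DESeq2. When 1 library at a time was left out, 885 of the 1372 genes (64.5%) stayed called with the same sign in all 25 fits.

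Only 4 genes separated the diets without overlap. In 1 gene of 14133 (0.00708%), Plin4, every HFD library lay above every control-diet library, and in 3 (0.0212%), Ces2a, Epb41l5 and Smad1, every HFD library lay below. Smad1, a transducer of BMP signals, was named after its values were seen. Plin4, a perilipin that coats lipid droplets (chromosome 17, 56100591 to 56109803, minus strand, GRCm38), ran from 3.82 to 22.7 CPM (median 16.1) on control diet and from 42.2 to 114 CPM (median 74.8) on HFD. The lowest HFD library lay above the highest control-diet library (log2 fold change 2.32 ± 0.23 SE, adjusted p = 2.25e-06; 2.46 in Rosa26KO and 2.17 in p53KO). Its exons overlap Hdgfl2 on the opposite strand, and the strand of counting is not given. Ces2a, a carboxylesterase that cleaves ester-containing drugs and lipids (chromosome 8, 104734003 to 104741634, plus strand), ran from 149 to 419 CPM (median 331) on control diet and from 59.5 to 137 CPM (median 95) on HFD (log2 fold change -1.74 ± 0.17 SE, adjusted p = 2.03e-06). Epb41l5, a FERM-domain protein of epithelial polarity (chromosome 1, 119545037 to 119649000, minus strand), ran from 28.7 to 42.2 CPM (median 37.6) on control diet and from 21.1 to 26.9 CPM (median 24.8) on HFD (log2 fold change -0.59 ± 0.06 SE, adjusted p = 2.25e-06). Smad1 ran from 22.3 to 35 CPM (median 24.4) on control diet and from 15.4 to 21.5 CPM (median 19.5) on HFD (log2 fold change -0.43 ± 0.07 SE, adjusted p = 0.000535). The fall of Epb41l5 and Smad1 was thus small but separated every library, while Plin4 differed in its medians by several fold.

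**Figure D1:**
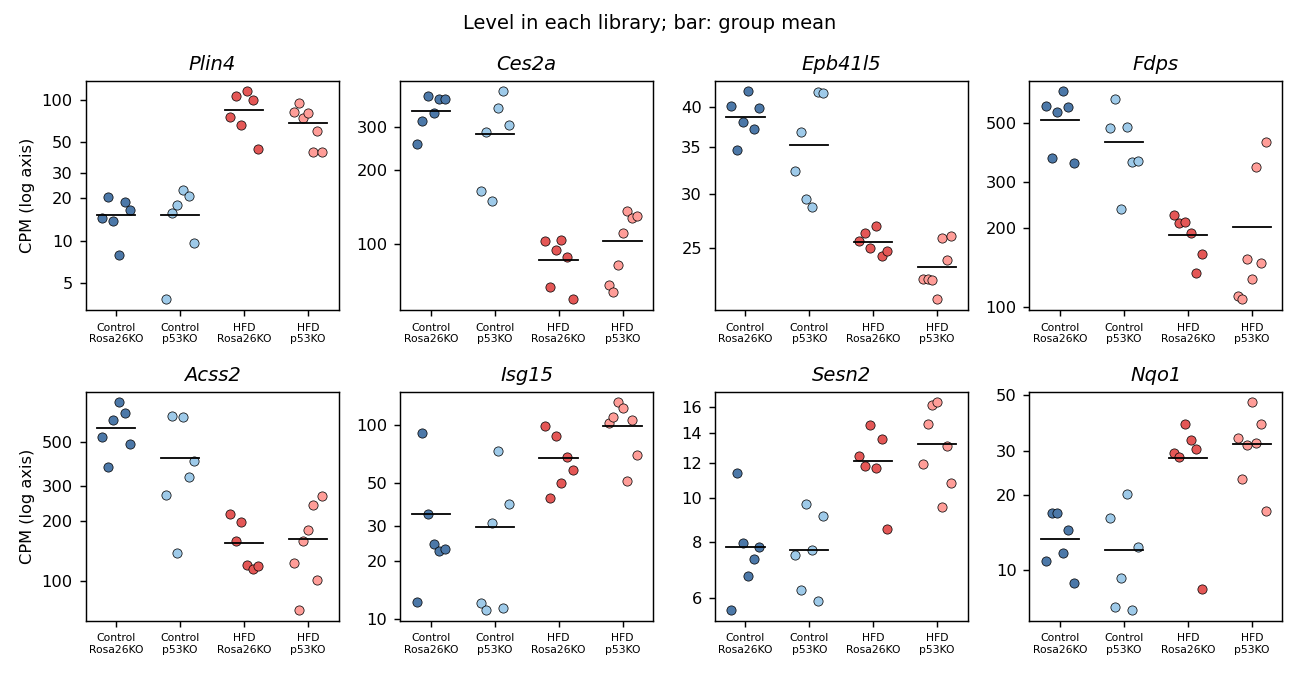
CPM on a log axis for 8 genes in each library of the 4 groups, with bars at the group means. Plin4, Ces2a and Epb41l5 do not overlap between the diets, while the other genes overlap in some libraries.

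Further genes of small p separated nearly all libraries. Gm2a, the activator protein for lysosomal GM2 ganglioside breakdown, ran from 168 to 283 CPM (median 239) on control diet and from 108 to 175 CPM (median 125) on HFD (log2 fold change -0.84 ± 0.08 SE, adjusted p = 2.03e-06), with 12 of 13 HFD libraries under every control-diet library. Fam107b ran from 44.8 to 86.3 CPM (median 59.7) on control diet and from 81.1 to 138 CPM (median 117) on HFD (log2 fold change 0.89 ± 0.10 SE, adjusted p = 5.27e-06), and 12 of 13 HFD libraries lay above every control. Slc22a5, the carnitine transporter OCTN2, rose by 0.61 ± 0.08 on the log2 scale (adjusted p = 6.18e-05).

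Each library was then placed along the diet difference with genes called without it, where -0.5 is the control-diet mean of the other libraries and 0.5 their HFD mean. Of 25 libraries, 20 lay on the side of their own diet, with a median of -0.45 on control diet (from -0.73 to 0.35) and 0.47 on HFD (from -0.27 to 0.75). The 5 others were Control_Rosa26KO 2 (0.312), Control_p53KO 1 (0.0706), Control_p53KO 3 (0.348), HFD_Rosa26KO 6 (-0.121) and HFD_p53KO 7 (-0.268). Without the 3 libraries high in neutrophil markers (Control_p53KO 1, Control_p53KO 3 and HFD_Rosa26KO 6) 2500 genes were called, and without the 4 high in acute phase genes (Control_p53KO 1, Control_Rosa26KO 1, HFD_p53KO 2 and HFD_p53KO 7) 1476 were called. Both of these exclusions, also used below, were chosen after seeing the data. No library was removed from the values given. Library names ran through the groups in 3 passes, whose meaning the labels do not give, and with a term for the passes 841 genes were called higher and 950 lower.

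**Figure D2:**
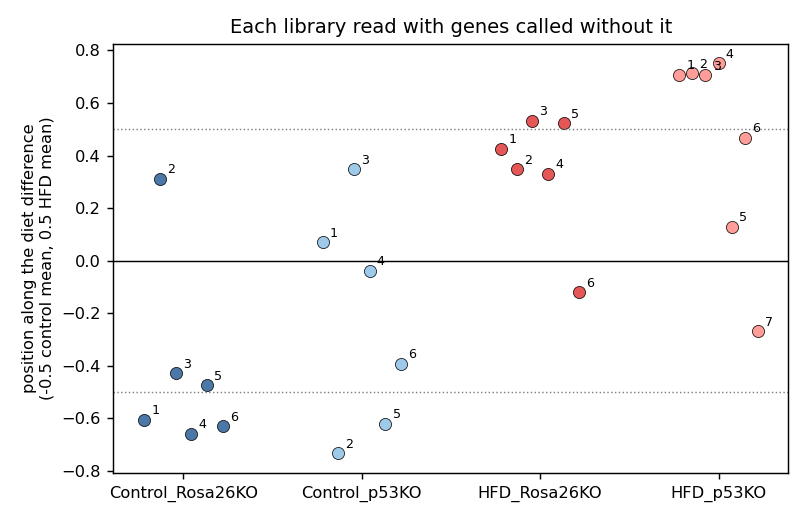
Position of each library along the diet difference, from genes called without that library, by group; numbers are replicates. Of 25 libraries, 20 lie on the side of their own diet, and HFD_p53KO 7 and HFD_Rosa26KO 6 lie below 0.

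Trp53 is the targeted gene. In Rosa26KO livers Trp53 measured 36.8 ± 4.80 CPM on control diet and 37.1 ± 4.56 CPM on HFD (SD, n = 6 each). In p53KO livers it measured 24.1 ± 6.89 CPM on control diet (SD, n = 6) and 26 ± 4.47 CPM on HFD (SD, n = 7). Of the p53KO libraries, Control_p53KO 3 (35.6 CPM) and HFD_p53KO 7 (31.0 CPM) lay inside the Rosa26KO range of 30.6 to 43.8 CPM, so for these 2 the gene does not check the genotype label. The diet difference of Trp53 was 0.06 ± 0.10 (SE) on the log2 scale (adjusted p = 0.766). Counts per whole gene cannot show which exons remain.

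The gene lists below were chosen with earlier results of these data known. A list share above that of all genes is therefore a description and not an independent test. Lipid droplet proteins rose in 6 of 21 measured members (median log2 fold change 0.25) and fell in 1, against 4.64% and 5.07% of all genes. Plin2, the droplet coat of fat-laden hepatocytes, ran from 219 to 629 CPM (median 412) on control diet and from 352 to 932 CPM (median 767) on HFD (log2 fold change 0.77 ± 0.16 SE, adjusted p = 0.00322). Plin5, which ties droplets to mitochondria, rose by 0.52 ± 0.14 (adjusted p = 0.0233), Fitm2, an endoplasmic reticulum protein of droplet formation, by 0.37 ± 0.10 (0.0243) and Hsd17b13, a droplet-bound dehydrogenase, by 0.47 ± 0.13 (0.0255). Without the 4 libraries high in acute phase genes, Plin5 (adjusted p = 0.0956) and Fitm2 (0.0585) no longer passed. Pnpla3, a droplet-bound lipase induced by feeding carbohydrate, was the member that fell, and ran from 12.7 to 201 CPM (median 47.2) on control diet and from 3.13 to 59.1 CPM (median 10.6) on HFD (log2 fold change -1.90 ± 0.42 SE, adjusted p = 0.00624); its exons overlap Gm49513. Cidec, which fuses droplets, had medians of 13.3 and 52.4 CPM but did not pass (log2 fold change 1.35 ± 0.46 SE, adjusted p = 0.0691). It passed in the fits without Control_Rosa26KO 2, Control_p53KO 3, Control_p53KO 4, HFD_Rosa26KO 6 or HFD_p53KO 7 (adjusted p down to 0.0320) and by DESeq2 (adjusted p = 0.0376). A second member fell without HFD_p53KO 7. Cidea was 0.60 (adjusted p = 0.670).

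Among genes of PPARG and fatty acid uptake, 3 of 21 rose and 2 fell (median 0.14), against 4.64% and 5.07% of all genes. Pparg ran from 10.5 to 23.8 CPM (median 14.6) on control diet and from 13.9 to 39.2 CPM (median 33.9) on HFD (log2 fold change 0.91 ± 0.16 SE, adjusted p = 0.00120), with 11 of 13 HFD libraries above every control. Cd36, a fatty acid translocase, ran from 67.5 to 219 CPM (median 113) on control diet and from 57.5 to 310.1 CPM (median 277) on HFD (log2 fold change 1.05 ± 0.24 SE, adjusted p = 0.00778), also with 11 of 13 above and HFD_p53KO 7 at 57.5 CPM below every control. Fabp5, an intracellular fatty acid carrier, fell, running from 28.4 to 236 CPM (median 102) on control diet and from 7.84 to 35.6 CPM (median 16) on HFD (log2 fold change -2.64 ± 0.29 SE, adjusted p = 6.70e-06). Acsl5, an acyl-CoA synthetase, fell by 0.54 ± 0.13 (adjusted p = 0.00926). The 3 became 6 without Control_p53KO 4, 5 without HFD_Rosa26KO 6 and 7 without the 3 libraries high in neutrophil markers, and the 2 became 4 without Control_p53KO 3.

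Fatty acid and triglyceride synthesis fell in 10 of 27 members and rose in 0 (median -0.56, 25 of 27 negative), against 5.07% and 4.64% of all genes. Acss2, which makes acetyl-CoA from acetate, ran from 138 to 789 CPM (median 508) on control diet and from 71.3 to 266 CPM (median 158) on HFD (log2 fold change -1.63 ± 0.23 SE, adjusted p = 0.000189), and its exons overlap Acss2os, Ggt7 and Gss. Acacb, an acetyl-CoA carboxylase, changed by -1.34 ± 0.22 (adjusted p = 0.000539), Acly, the ATP citrate lyase, by -1.25 ± 0.22 (0.000853) and Elovl6, an elongase, by -1.24 ± 0.27 (0.00451). Scd1, which desaturates stearate, ran from 8798 to 34925 CPM (median 21987) on control diet and from 997 to 14966 CPM (median 9771) on HFD (log2 fold change -1.34 ± 0.32 SE, adjusted p = 0.0104). Fasn, the fatty acid synthase, ran from 801 to 4715 CPM (median 1881) on control diet and from 388 to 2158 CPM (median 923) on HFD (log2 fold change -1.10 ± 0.29 SE, adjusted p = 0.0160). Mlxipl, which encodes ChREBP, was -0.78 ± 0.16 (adjusted p = 0.00407), while Srebf1, which encodes SREBP1, was -0.07 ± 0.15 (0.829). Srebf1 had a positive value of 0.0211 when Control_p53KO 2 was left out, and its exons overlap Rai1. Smaller falls passed for Aacs (-0.96), Acaca (-0.58) and Slc25a1 (-0.42), the acetoacetyl-CoA synthetase, the other carboxylase and the mitochondrial citrate carrier. Without the 3 libraries high in neutrophil markers 16 members fell.

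Cholesterol synthesis and SREBP2 target genes fell in 17 of 25 members and rose in 0, and all 25 were negative (median -0.72, against -0.01 over all genes). Over all genes 5.07% fell and 4.64% rose. Pmvk, phosphomevalonate kinase, ran from 47.6 to 128 CPM (median 79.2) on control diet and from 18.3 to 53.4 CPM (median 32) on HFD (log2 fold change -1.37 ± 0.18 SE, adjusted p = 6.18e-05), with 11 of 13 HFD libraries below every control. Fdps, farnesyl diphosphate synthase, ran from 236 to 661 CPM (median 484) on control diet and from 107 to 426 CPM (median 159) on HFD (log2 fold change -1.26 ± 0.21 SE, adjusted p = 0.000759), and it overlaps Gm43738. Later steps fell as well: Lss, lanosterol synthase, by 1.12 ± 0.23 (adjusted p = 0.00358), Tm7sf2, a sterol reductase overlapping Vps51, by 1.09 ± 0.19 (0.00109) and Sc5d, a sterol desaturase, by 0.71 ± 0.15 (0.00471). Idi1 (-1.05), Sqle (-1.02), Mvd (-1.06) and Stard4 (-0.85), an isomerase, the squalene epoxidase, the mevalonate decarboxylase and a sterol carrier, also passed. Srebf2 itself was -0.26 ± 0.12 (adjusted p = 0.205), which did not pass. HFD_p53KO 5 and HFD_p53KO 7 had Pmvk at 53.4 and 53 CPM, above the lowest control-diet library. Between 16 and 21 members passed whichever library was left out.

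**Figure D3:**
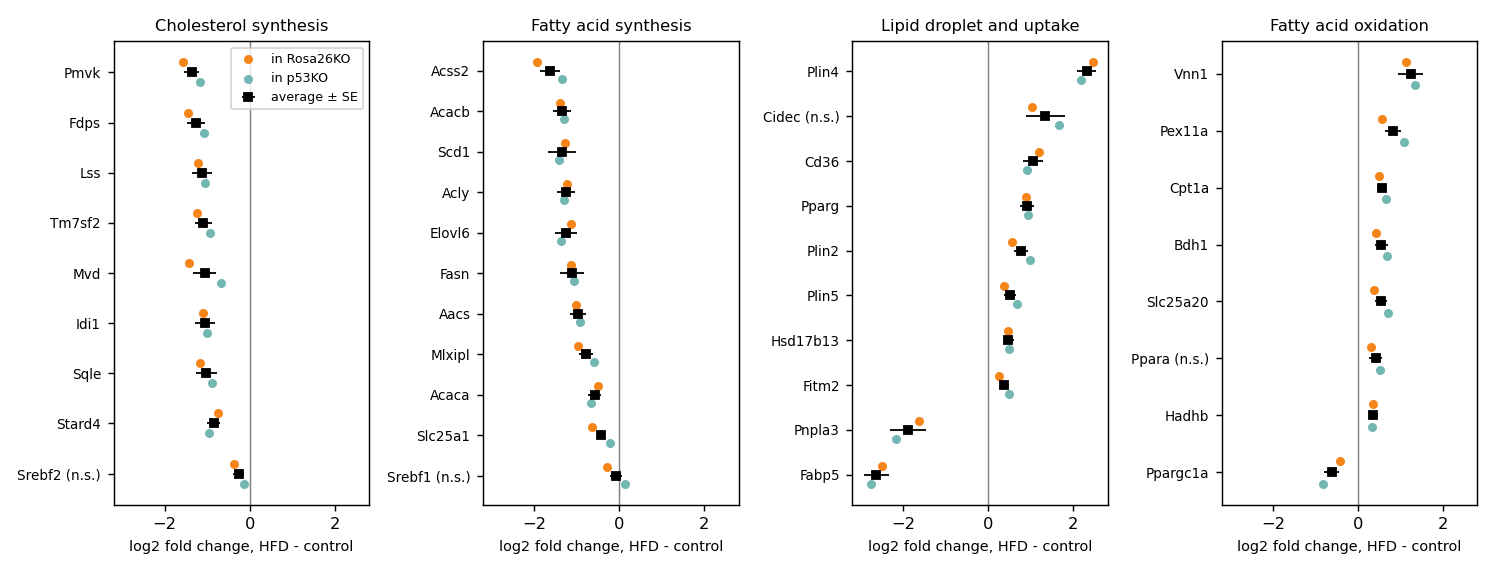
Log2 fold change of HFD over control diet for genes of cholesterol synthesis, fatty acid synthesis, lipid droplets with uptake, and fatty acid oxidation: black squares are the average with its SE, coloured points the values in Rosa26KO and p53KO, and n.s. marks genes that did not pass. The averages of the synthesis genes lie left of 0, that of Srebf1 at -0.07 with an SE that crosses 0. The average of Plin4 lies farthest right at 2.32.

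Fatty acid oxidation, ketogenesis and PPARA target genes rose in 9 of 39 members and fell in 1 (median 0.34, 35 of 39 positive), against 4.64% and 5.07% of all genes. Cpt1a, the gate of mitochondrial import, ran from 205 to 449.7 CPM (median 312) on control diet and from 402 to 679.6 CPM (median 472) on HFD (log2 fold change 0.58 ± 0.12 SE, adjusted p = 0.00373). Vnn1, a pantetheinase and PPARA target, ran from 13.1 to 121 CPM (median 44.6) on control diet and from 29.4 to 193 CPM (median 133) on HFD (log2 fold change 1.24 ± 0.30 SE, adjusted p = 0.00994). Pex11a, a peroxisome proliferation factor, rose by 0.83 ± 0.20 (adjusted p = 0.00907), Slc25a20, the carnitine-acylcarnitine carrier, by 0.54 ± 0.14 (0.0137), Bdh1, of ketone body synthesis, by 0.56 ± 0.16 (0.0237) and Hadhb, of the trifunctional protein, by 0.35 ± 0.09 (0.0162). Ppara itself was 0.42 ± 0.15 (adjusted p = 0.0880) and passed in 2 of the 25 fits with 1 library left out, those without Control_p53KO 4 or Control_p53KO 5 (adjusted p down to 0.0365). Ppargc1a, a coactivator of mitochondrial genes, fell by 0.62 ± 0.17 (adjusted p = 0.0199). The 9 became 18 without Control_p53KO 4.

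Lipoprotein genes rose in 3 of 29 and fell in 4, and bile acid genes rose in 1 of 27 (3.70%) and fell in 4. Over all genes 4.64% rose and 5.07% fell. Apoa4, an apolipoprotein of triglyceride-rich particles, ran from 133 to 888 CPM (median 274) on control diet and from 284 to 1600.3 CPM (median 1023) on HFD (log2 fold change 1.38 ± 0.29 SE, adjusted p = 0.00392), with 10 of 13 HFD libraries above every control. Angptl4, a lipase inhibitor, rose by 0.98 ± 0.25 (adjusted p = 0.0161; 0.0692 without the 4 libraries high in acute phase genes). Apoc2, the activator of lipoprotein lipase, rose by 0.50 ± 0.13 (0.0204). Pltp, which transfers phospholipids and overlaps Ctsa, fell by 1.02 ± 0.19 (0.00167). Apom fell by 0.89 ± 0.20 (0.00694), Apoa1, the main HDL protein, by 0.52 ± 0.14 (0.0207) and Tm6sf2, of VLDL export, by 0.62 ± 0.18 (0.0254). Cyp7a1, the rate-limiting enzyme of bile acid synthesis, ran from 47.5 to 159 CPM (median 92.6) on control diet and from 30.3 to 89.4 CPM (median 47.5) on HFD (log2 fold change -0.96 ± 0.22 SE, adjusted p = 0.00648). Cyp27a1 (-0.53), Abcb11 (-0.58) and Slc10a1 (-0.92), a side-chain hydroxylase and the canalicular and sinusoidal bile salt transporters, also fell, while Abcb4, the canalicular phospholipid flippase, rose by 0.69 ± 0.12 (adjusted p = 0.000831). The 4 bile acid genes that fell became 7 without HFD_p53KO 5, the 1 that rose became 2 without HFD_Rosa26KO 6, and the 3 lipoprotein genes that rose became 5 without Control_p53KO 3.

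Xenobiotic and steroid cytochromes P450 and their receptors fell in 12 of 48 and rose in 3 (median -0.27), against 5.07% and 4.64% of all genes. The 3 that rose, Cyp2b13, Cyp2b9 and Cyp2a4, are female-biased in mouse liver. Cyp2b13 ran from 0 to 6.44 CPM (median 0.374) on control diet and from 0.185 to 107 CPM (median 25.5) on HFD (log2 fold change 4.67 ± 0.79 SE, adjusted p = 0.000803), or 5.71 without Control_p53KO 4, and 9 of 13 HFD libraries lay above every control, HFD_p53KO 7 being at 0.185 CPM. Cyp2a4 ran from 8.57 to 85 CPM (median 23.3) on control diet and from 20.5 to 222 CPM (median 117) on HFD (log2 fold change 1.86 ± 0.40 SE, adjusted p = 0.00433). Cyp2b9 ran from 0.401 to 205 CPM (median 4.74) on control diet and from 7.41 to 348 CPM (median 219) on HFD (log2 fold change 2.86 ± 0.80 SE, adjusted p = 0.0246), or 4.39 without Control_p53KO 4, the control library at its highest value. Cyp2b10, Cyp2c55 and Cyp2c29, drug-metabolising enzymes known to respond to the receptors CAR and PXR, fell, with log2 fold changes of -2.69 ± 0.45, -1.74 ± 0.33 and -1.36 ± 0.26 (SE, adjusted p = 0.000658, 0.00209 and 0.00221). Cyp2b10 was low, from 0.277 to 17.3 CPM on control diet and from 0.0521 to 1.97 CPM on HFD. Cyp3a11 ran from 1504 to 4277 CPM (median 3549) on control diet and from 169.5 to 2096 CPM (median 1695) on HFD (log2 fold change -1.26 ± 0.32 SE, adjusted p = 0.0135), and Cyp1a2 fell by 1.06 ± 0.22 (0.00361). Cyp3a41a and Cyp3a41b, also female-biased, were at -2.15 and -2.14, but without Control_p53KO 1, which held 214 CPM of Cyp3a41a, they were at -1.23 and -1.29 and still passed. Counts of these close paralogs are uncertain, since the handling of shared reads is not given. Over the list of female-biased genes 4 of 25 rose and 5 fell, and over male-biased genes 0 of 24 rose and 3 fell (median -0.68). The median of the female-biased genes was 0.72 in Rosa26KO and -0.91 in p53KO. That of the male-biased genes was -1.08 in Rosa26KO and -0.21 in p53KO. The 3 male-biased genes that fell became 14 without HFD_p53KO 7, 9 without HFD_Rosa26KO 6, 8 without Control_p53KO 1 and 1 without HFD_Rosa26KO 3. They became 13 without the 3 libraries high in neutrophil markers and 15 without the 4 high in acute phase genes. Carboxylesterases fell in 2 of 13, Ces2a and Ces3b (log2 fold change -1.25 ± 0.27 SE, adjusted p = 0.00543).

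Interferon-stimulated genes rose in 29 of 45 members, fell in 0 and were positive in all 45 (median 0.75), where 4.64% of all genes rose and 5.07% fell. Isg15, a ubiquitin-like modifier, ran from 11.2 to 90.8 CPM (median 23.6) on control diet and from 42 to 130.3 CPM (median 87.1) on HFD (log2 fold change 1.34 ± 0.32 SE, adjusted p = 0.00911), with Control_Rosa26KO 2 at 90.8 CPM and Control_p53KO 4 at 73.4 CPM inside the HFD range. Gbp3, a guanylate-binding GTPase, ran from 14.4 to 79.7 CPM (median 26.9) on control diet and from 43.9 to 116 CPM (median 88.9) on HFD (log2 fold change 1.24 ± 0.26 SE, adjusted p = 0.00392). Oasl2, an oligoadenylate synthetase-like protein, ran from 13.8 to 166 CPM (median 30.4) on control diet and from 58.9 to 285 CPM (median 166) on HFD (log2 fold change 1.66 ± 0.39 SE, adjusted p = 0.00904). Trim30a rose by 1.10 ± 0.24 (adjusted p = 0.00584), Ddx58, which encodes the RNA sensor RIG-I, by 0.55 ± 0.13 (0.00920), and Oas1g, with close paralogs, by 1.36 ± 0.33 (0.0112). Ifit1, which binds foreign RNA caps, rose by 1.26 ± 0.34 (0.0209; 0.0569 without the 4 libraries high in acute phase genes). The count was 19 without HFD_Rosa26KO 3 and 17 without the 4 libraries high in acute phase genes, and 33 without the 3 high in neutrophil markers. The median was 0.58 in Rosa26KO and 1.0 in p53KO. Of T and NK cell markers 0 of 18 passed (1 at an unadjusted p under 0.05, and 1 by limma voom and 1 by DESeq2). Of Kupffer cell markers 1 of 13 passed, as lower, while by limma voom 5 rose. Their median log2 fold change was 0.50 in Rosa26KO and -0.65 in p53KO. In lists of this size, counts of 0 and 1 are near the shares over all genes. A T and NK cell marker passed as lower without Control_p53KO 1 or Control_p53KO 4, and 1 as higher without the 3 libraries high in neutrophil markers. Ubd, a ubiquitin-like protein induced by cytokines, ran from 1.37 to 21.5 CPM (median 3.29) on control diet and from 3.27 to 53 CPM (median 27.1) on HFD (log2 fold change 2.11 ± 0.49 SE, adjusted p = 0.00772), and Slfn4, a Schlafen of myeloid cells, rose by 2.04 ± 0.50 (0.0123).

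**Figure D4:**
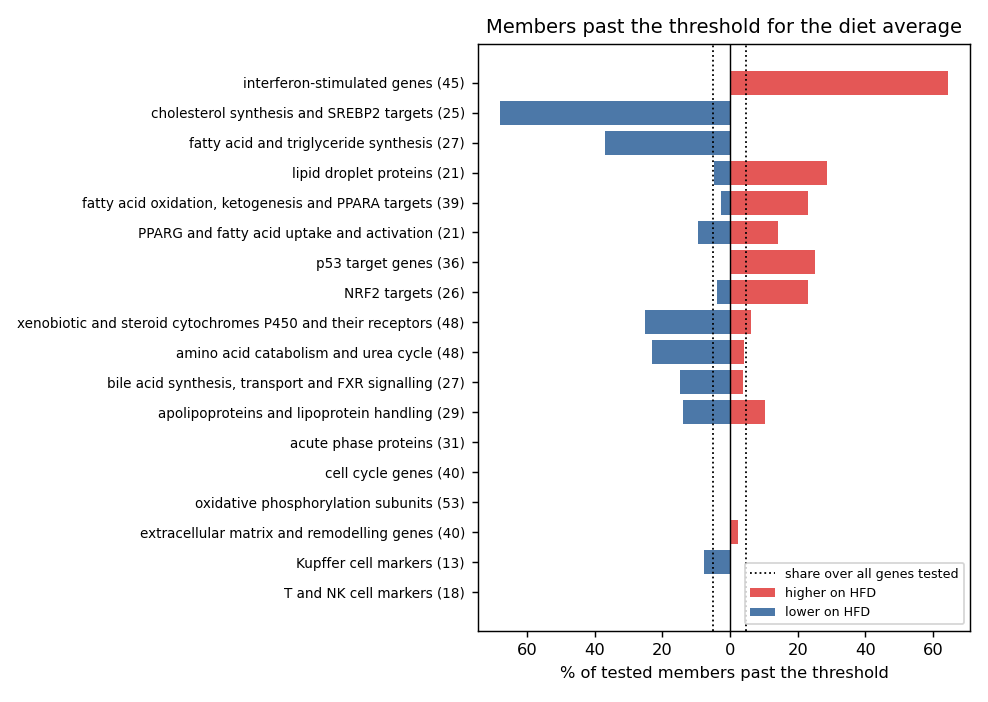
Percent of the tested members of 18 gene lists that passed, higher on HFD to the right and lower to the left, with the number tested in parentheses and dotted lines at the shares over all genes (4.64% and 5.07%). Interferon-stimulated and cholesterol synthesis genes reach farthest. The lists were chosen with earlier results of these data known.

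p53 target genes rose in 9 of 36 members and fell in 0 (median 0.20, 31 positive), against 4.64% and 5.07% of all genes. In each diet 1 of the groups carried the p53 knockout. Sesn2, a stress-induced inhibitor of mTORC1, ran from 5.62 to 11.4 CPM (median 7.56) on control diet and from 8.54 to 16.4 CPM (median 12.4) on HFD (log2 fold change 0.71 ± 0.12 SE, adjusted p = 0.000581; 0.63 in Rosa26KO and 0.78 in p53KO). Eda2r, a TNF receptor family member, ran from 0.0571 to 2.90 CPM (median 0.682) on control diet and from 0.460 to 5.80 CPM (median 2.77) on HFD (log2 fold change 1.90 ± 0.32 SE, adjusted p = 0.000637; 1.34 and 2.47). Ccng1 rose by 0.42 ± 0.10 (adjusted p = 0.00810), Zmat3 by 0.52 ± 0.14 (0.0168), Aen, an apoptosis-linked nuclease, by 0.45 ± 0.12 (0.0205) and Mdm2, the ligase that degrades p53, by 0.21 ± 0.06 (0.0201). Cdkn1a, the cell cycle inhibitor p21, ran from 3.54 to 88.9 CPM (median 19.5) on control diet and from 7.52 to 93.2 CPM (median 40.4) on HFD (log2 fold change 1.16 ± 0.37 SE, adjusted p = 0.0480). Cdkn1a kept its call only when Control_Rosa26KO 2, Control_p53KO 1, Control_p53KO 3, HFD_Rosa26KO 4, HFD_p53KO 5, HFD_p53KO 6 or HFD_p53KO 7 was the library left out, and otherwise reached an adjusted p up to 0.0879. Trp53cor1, a noncoding RNA beside Cdkn1a, rose by 1.14 ± 0.32 at under 1 CPM (0.0239). Without the 4 libraries high in acute phase genes Cdkn1a (0.0704), Mdm2 (0.0652) and Trp53cor1 (0.0530) no longer passed. The 9 became 15 without Control_Rosa26KO 2, and 1 member fell without that library or HFD_p53KO 5. Among the genes named here for the diet average, none passed for a difference in diet response between genotypes, the smallest adjusted p being 0.533 (0.462 over all genes tested).

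NRF2 target genes rose in 6 of 26 and fell in 1 (median 0.24), against 4.64% and 5.07% of all genes. Nqo1, a quinone reductase, ran from 6.91 to 20.2 CPM (median 12) on control diet and from 8.39 to 47 CPM (median 31.6) on HFD (log2 fold change 1.24 ± 0.21 SE, adjusted p = 0.000822), with 11 of 13 HFD libraries above every control and HFD_Rosa26KO 6 at 8.39 CPM. Cbr3, a carbonyl reductase, ran from 0.427 to 5.61 CPM (median 1.19) on control diet and from 0.781 to 37.6 CPM (median 13.2) on HFD (log2 fold change 2.95 ± 0.51 SE, adjusted p = 0.000853), and Srxn1, which repairs peroxiredoxins, ran from 33.3 to 107 CPM (median 54.8) on control diet and from 38.9 to 232 CPM (median 122) on HFD (log2 fold change 1.20 ± 0.21 SE, adjusted p = 0.00112). G6pdx, of the pentose phosphate pathway, was the member that fell (log2 fold change -1.01 ± 0.24 SE, adjusted p = 0.0113), and its exons overlap Ikbkg. Nfe2l2, which encodes NRF2, was 0.21 ± 0.13 (adjusted p = 0.325). The 6 became 3 without any 1 of Control_Rosa26KO 1, 4, 5 and 6, Control_p53KO 2 and 5, HFD_Rosa26KO 1 to 5, and HFD_p53KO 4 and 6, and 10 without HFD_Rosa26KO 6.

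Amino acid catabolism and urea cycle genes fell in 11 of 48 and rose in 2 (median -0.26), against 5.07% and 4.64% of all genes. Csad, of taurine synthesis, ran from 158 to 453 CPM (median 273) on control diet and from 35.8 to 203 CPM (median 137) on HFD (log2 fold change -1.12 ± 0.19 SE, adjusted p = 0.000658), and it overlaps Zfp740. Hal, which degrades histidine, fell by 1.06 ± 0.21 (adjusted p = 0.00293), Cps1, the entry of the urea cycle, by 0.89 ± 0.19 (0.00452), Gnmt, a glycine methyltransferase, by 0.75 ± 0.20 (0.0189) and Agxt, of glyoxylate disposal, by 0.69 ± 0.19 (0.0251). The 11 became 17 without Control_p53KO 3, 18 without HFD_p53KO 7, and 5 to 7 without any 1 of Control_Rosa26KO 5, Control_p53KO 2, 5 and 6, HFD_Rosa26KO 1, 3 and 5, and HFD_p53KO 1 to 4. The 2 that rose became 1 in 17 of the 25 such fits.

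Hepatocyte markers moved in the same direction: 6 of 15 fell, 0 rose and all 15 were negative (median -0.40). Over all genes 5.07% fell and 4.64% rose. The lists share genes: Cps1 and Tat are also among the amino acid genes that fell, and Apoa1 among the lipoprotein genes. The summed level of hepatocyte markers ran from 104611 to 217213 CPM (median 175183) on control diet and from 83627 to 219140.0 CPM (median 108108) on HFD. Alb, albumin, ran from 57060.3 to 130670.0 CPM (median 104538) on control diet and from 36511 to 128872 CPM (median 55674) on HFD (log2 fold change -0.63 ± 0.18 SE, adjusted p = 0.0306). In bulk tissue fewer cells of a type and less RNA per cell cannot be told apart. The part of this in the falls of metabolic genes was not tested. Alb lost its call without Control_Rosa26KO 3 or 4, Control_p53KO 2 or 5, or HFD_Rosa26KO 2, 3, 4 or 5 (adjusted p up to 0.0582), and the 6 became 2 or 3 in 15 of the 25 fits with 1 library left out. Erythroid markers rose in 4 of 8 tested, the globins Hbb-bs, Hbb-bt, Hba-a1 and Hba-a2, whose paralogs share reads. Hbb-bs ran from 112 to 405 CPM (median 171) on control diet and from 164 to 1940.4 CPM (median 259.9) on HFD (log2 fold change 1.26 ± 0.37 SE, adjusted p = 0.0320), with HFD_Rosa26KO 1 at 1940.4 CPM, HFD_Rosa26KO 6 at 1349 CPM and HFD_p53KO 5 at 884 CPM. Without any 1 of those libraries, or of Control_Rosa26KO 4 or 6 or Control_p53KO 2, 5 or 6, it did not pass and 0 erythroid markers passed, while 1 or 2 passed without Control_Rosa26KO 1, 2, 3 or 5, Control_p53KO 4 or HFD_p53KO 2. With a term for passes of library names 0 erythroid markers passed (Hbb-bs 1.14, adjusted p = 0.0507).

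In edgeR, markers of macrophages were called in single members, where 4.64% of all genes rose and 5.07% fell. By limma voom 14 recruited and lipid-associated macrophage markers rose, with a replicate block 7 and by DESeq2 3. Of Kupffer cell markers 5 rose by limma voom, 2 with a replicate block and 1 by DESeq2, against 0 in edgeR. Of recruited and lipid-associated macrophage markers 1 of 19 rose and 1 fell (median 0.48), with a summed level from 1489.8 to 4428 CPM (median 2183) on control diet and from 1764 to 3667 CPM (median 2126) on HFD. Mmp12, a macrophage elastase, ran from 0.839 to 17.4 CPM (median 4.08) on control diet and from 1.98 to 60.6 CPM (median 22.5) on HFD (log2 fold change 1.96 ± 0.48 SE, adjusted p = 0.0113), with HFD_p53KO 7 at 1.98 CPM and HFD_Rosa26KO 6 at 4.12 CPM, and overlaps Mmp1b. Cd207, langerin, ran from 2.01 to 267 CPM (median 5.99) on control diet and from 0.356 to 6.78 CPM (median 1.99) on HFD (log2 fold change -2.90 ± 0.63 SE, adjusted p = 0.00540), but Control_p53KO 3 held 267 CPM of it, and without that library the value was -1.70. The 1 that rose became 5 without HFD_p53KO 7, 4 without Control_p53KO 1, 3 without Control_Rosa26KO 2, Control_p53KO 3 or HFD_p53KO 5, 2 without HFD_Rosa26KO 6, and 9 without the 3 libraries high in neutrophil markers. Cd163, a haemoglobin scavenger of Kupffer cells, was -2.57 ± 0.67 (adjusted p = 0.0165) and lost its call without Control_p53KO 3 (-1.56; adjusted p = 0.0562) or Control_Rosa26KO 6 (-1.76; 0.0644). Their part in other results was not tested. Adipocyte markers were low, and Lep was at 0 in all libraries. Cfd, adipsin, a complement protease made by adipocytes, ran from 0.116 to 8.56 CPM (median 1.31) on control diet and from 2.43 to 21.3 CPM (median 5.21) on HFD (log2 fold change 1.98 ± 0.52 SE, adjusted p = 0.0180). It alone was called of the 3 adipocyte markers tested, whose median log2 fold change was 0.12 and lowest -0.17.

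Several programmes gave few calls, where 4.64% of all genes rose and 5.07% fell. In lists of this size, so few calls are not read as a result about the lists. Acute phase proteins gave 0 of 31 in edgeR (3 at an unadjusted p under 0.05, 0 by DESeq2, 4 higher and 6 lower by limma voom), cell cycle genes 0 of 40 (0 unadjusted, 0 by DESeq2, 33 higher by limma voom), and oxidative phosphorylation subunits 0 of 53 (4 unadjusted, 0 by DESeq2, 12 lower by limma voom). Cell cycle genes were nonetheless positive in 36 and negative in 4 (median log2 fold change 0.34, 0.62 in Rosa26KO and 0.08 in p53KO). Oxidative phosphorylation subunits were positive in 5 and negative in 48 (median -0.09), and acute phase proteins positive in 11 and negative in 20 (median -0.23). With 1 library left out, 1 acute phase gene rose without Control_Rosa26KO 1 and 3 without Control_p53KO 1, 2 fell without HFD_p53KO 7, and 1 oxidative phosphorylation subunit fell without Control_Rosa26KO 2, Control_p53KO 3 or HFD_p53KO 7. Cell cycle genes rose in 8 of 40 without Control_Rosa26KO 2. Without the 3 libraries high in neutrophil markers 3 acute phase and 5 cell cycle genes rose and 3 oxidative phosphorylation subunits fell, and without the 4 high in acute phase genes 6 acute phase genes rose. With a replicate block 2 acute phase genes rose and 2 fell and 2 oxidative phosphorylation subunits fell, and with the pass term 1 acute phase gene rose and 1 subunit fell. Of extracellular matrix genes 1 of 40 rose, against 8 without Control_Rosa26KO 2, 4 without HFD_p53KO 7, 2 without Control_p53KO 3 and 0 without Control_p53KO 2 or HFD_p53KO 1. Of these 40 genes, 28 were positive and 12 negative (median 0.24), and 11 had an unadjusted p under 0.05. By limma voom 16 of them rose and 1 fell.

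Other large changes concerned hormone handling and genes of low level. Dio1, which activates thyroid hormone, ran from 10.5 to 120.5 CPM (median 21.1) on control diet and from 73.5 to 265 CPM (median 130.5) on HFD (log2 fold change 2.24 ± 0.32 SE, adjusted p = 0.000190), with Control_p53KO 1 at 120 CPM inside the HFD range. Rad51b, a homologous recombination factor, ran from 0.857 to 6.96 CPM (median 2.92) on control diet and from 4.57 to 29.6 CPM (median 21.2) on HFD (log2 fold change 2.57 ± 0.31 SE, adjusted p = 3.11e-05), with 12 of 13 HFD libraries above every control. Sprr1a, a cornified envelope protein, ran from 0 to 6.10 CPM (median 0.118) on control diet and from 0.185 to 52.1 CPM (median 18.8) on HFD (log2 fold change 4.57 ± 0.79 SE, adjusted p = 0.000853), or 6.66 without Control_Rosa26KO 2. Themis, known from T cell development, ran from 0.663 to 5.15 CPM (median 1.47) on control diet and from 0.938 to 19.6 CPM (median 10.2) on HFD (log2 fold change 2.24 ± 0.40 SE, adjusted p = 0.00119). Ly6d rose by 2.71 ± 0.65 (adjusted p = 0.0101), or by 3.52 without Control_Rosa26KO 2 and 3.35 without Control_p53KO 1. Igfbp2, an IGF binding protein, ran from 133 to 447 CPM (median 289) on control diet and from 12.7 to 214 CPM (median 87.4) on HFD (log2 fold change -1.70 ± 0.35 SE, adjusted p = 0.00358), and Socs2, a feedback inhibitor of growth hormone signalling, fell by 1.25 ± 0.33 (0.0167), while Igf1 was -0.21 ± 0.13 (0.332). Adgrf1, an adhesion receptor, ran from 1.62 to 19.1 CPM (median 5.79) on control diet and from 0.267 to 2.76 CPM (median 0.614) on HFD (log2 fold change -3.17 ± 0.39 SE, adjusted p = 3.27e-05). Nat8f7, Clec2h, Chrna4, Slc13a2 and Srgap3 fell, with log2 fold changes of -4.16 ± 0.66, -2.89 ± 0.46, -2.64 ± 0.41, -2.52 ± 0.30 and -2.17 ± 0.30 (SE, adjusted p = 0.000441, 0.000441, 0.000386, 1.79e-05 and 0.000100), the last 3 being a nicotinic receptor subunit, a dicarboxylate transporter and a GTPase activator. Nat8f7 was near the floor, from 0.0578 to 6.89 CPM on control diet and from 0 to 0.307 CPM on HFD, and the diets overlapped.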

How the data were processed

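Raw read counts per gene in 25 liver libraries were deposited by the authors as 1 table of 24537 gene symbols. Per the submitters' processing notes, STAR and HOMER were the tools and GRCm38, also called mm10, the build; their versions, the strand of counting and the treatment of shared reads are not stated there or in the labels. Of the symbols, 23828 were matched in GENCODE M21, which supplied positions and exon overlaps. Totals ran from 16324283 to 21501281.

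Genes passing filterByExpr in edgeR 4.0.16 (minimum count 10, minimum total 15; 14133 genes) were scaled by TMM and fitted with a robust quasi-likelihood model with 1 mean per group, two-sided, with Benjamini-Hochberg adjustment over all genes and a threshold of 0.05. SE values were derived from the test statistic. CPM used TMM-scaled totals. Promoters came from RefSeq. DESeq2 1.42.0, limma voom (limma 3.58.1), RLE and upper quartile scaling, no filter, non-robust dispersion, an additive model, a term for passes of library names, a replicate block and each library left out in turn were alternatives. No replicate pair agreed within sampling noise (lowest chi-square per degree of freedom 11.6). Counts simulated with 200 changed genes were used to test the fit. Work used R 4.3.3 and Python 3.11.15.

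The members and the gene lists were chosen with earlier results of these data known. Named genes are, among called genes of at least 1 CPM with model and clone names passed over, the 15 largest rises and falls, the 10 rises and falls of smallest p, up to 4 members a list in each direction, and other list members with their values. Of 158 called genes so allowed, 71 are not named, some of them because the call was lost in several fits with 1 library left out, so the named genes are steadier than the rest, and others are not reported here; the counts include all.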

Additional observations from a re-analysis of the deposited data

Results flagged for a closer look

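Libraries that lay apart from the rest of their own group were looked for in 476 sets of values, 1 for each named gene and group and for the position along the diet difference, and 34 were found. Chance alone marks about 1 in 20 such groups, so a single entry carries little weight. Values are CPM. HFD_Rosa26KO 6 was the lowest library of its group, by a wide gap, for Plin2 (352), Pparg (13.9), Cd36 (112), Vnn1 (29.4), Cyp3a11 (240.5), Nqo1 (8.39), Cbr3 (0.781), Srxn1 (38.9), Rad51b (11.4) and Ly6d (3.96). In Control_Rosa26KO 2 the highest values of the group, set apart from the others, were those of Cyp3a41a (30.0), Cyp3a41b (18.8), Oasl2 (166), Aen (20.7), Sprr1a (6.10) and Ly6d (42). Control_p53KO 3 was the lowest library of its group, by a wide gap, for Tm7sf2 (65.2), Apoa1 (6060.4), Hal (123), Agxt (113) and Alb (57060.3). In HFD_p53KO 7 the lowest values of the group, set apart from the others, were those of Cd36 (57.5), Apoa4 (284), Cyp2b13 (0.185) and Cyp2b9 (7.41). HFD_p53KO 5 was the lowest library of its group, by a wide gap, for Aen (7.36) and Trp53cor1 (0). In HFD_p53KO 2 the lowest values of the group, set apart from the others, were those of Aacs (26.2). Control_Rosa26KO 5 was the highest library of its group, by a wide gap, for Slc25a1 (451). In Control_Rosa26KO 2 the lowest values of the group, set apart from the others, were those of Ppargc1a (3.47). HFD_Rosa26KO 6 was the highest library of its group, by a wide gap, for Apom (155). In HFD_p53KO 5 the highest values of the group, set apart from the others, were those of Hbb-bs (884). For the position along the diet difference, from genes called without the library, Control_Rosa26KO 2 lay at 0.312 and HFD_Rosa26KO 6 at -0.121, each far from the other libraries of its group and on the side of the other diet. The cause was not tested.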

How the results depend on the processing

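The count of genes called for the diet average was 1372 and lay between 1012 and 1883 when 1 library was left out (467 to 913 higher, 544 to 1023 lower), 1178 with no filter on low counts and 1800 with DESeq2. It was 5010 with limma voom and sample quality weights (2572 higher, 2438 lower), 2282 with a replicate block (1097 higher, 1185 lower) and 2500 without the 3 libraries high in neutrophil markers (1223 higher, 1277 lower), an alternative chosen after seeing the data. The fit without the 4 libraries high in acute phase genes, with 1476 genes called, was also chosen after seeing the data. Of the 1372 genes, 839 stayed called with the same sign under all 36 alternatives. In Rosa26KO alone 213 genes became 615 with DESeq2, 3038 with limma voom, 549 with a replicate block, 442 with a term for passes of library names, 538 without the 3 libraries, and 93 to 509 with 1 library left out. In p53KO alone 405 became 907, 785 with a replicate block, 2189 with limma voom, 633 with the pass term, and 173 to 760 with 1 library left out. The diet by genotype difference gave 0 genes by edgeR in every other alternative and 5 by DESeq2. The replicate numbers do not pair the libraries: of 36 same-number pairs 17 correlated above 0.1 and 3 of 25 libraries correlated best with their own number, and with the replicate block Cd163 no longer passed (adjusted p = 0.0588) while Cidec (0.0266) and Ppara (0.0235) did. Of 4248 refits of named genes, 4179 kept direction and side of the threshold, 51 lost the call, 17 gained it and 1 changed sign, Srebf1 without Control_p53KO 2 (-0.144 to 0.0211 with 1 library left out). Some genes were left unnamed because their call was lost in such fits, so this agreement was partly fixed by the choice of genes. Of 158 called genes that the naming rule allows, 121 kept the call with every library left out in turn. The number of libraries on their own diet's side was 20 also with the 500 genes of smallest p. Counts were also simulated at this depth, with 13 against 12 libraries and 200 changed genes. In them 56.0% of 1.5-fold changes and 95.9% of 2-fold changes were recovered, with a false share of 5.98%. These rates describe the simulated counts. Whether they hold for the real libraries, of which 20 of 25 lay on their own diet's side, was not tested. With limma voom more members passed in most lists: 40 interferon-stimulated, 24 cholesterol synthesis, 24 fatty acid oxidation, 22 p53 target and 18 NRF2 target genes. With a replicate block the fatty acid oxidation genes that rose were 20 and the p53 targets 15. The cause of these shifts was not tested.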

Other observations

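Some programmes stood apart in 1 or a few libraries without a call for the diet average, where 4.64% of all genes rose and 5.07% fell. The summed acute phase proteins ran from 31988 to 179337 CPM (median 39984) on control diet and from 26271 to 87049.8 CPM (median 38286) on HFD, the highest library being Control_p53KO 1. Neutrophil markers summed to 8.41 to 639.6 CPM on control diet and 11.2 to 411 CPM on HFD, and 0 of 13 were called for the average by edgeR (0 at an unadjusted p under 0.05), by DESeq2 or by limma voom. Their median log2 fold change was 2.29 in Rosa26KO and -2.69 in p53KO, and DESeq2 alone called Ltf, Ngp and Mpo for the difference between genotypes. The summed male-biased genes ran from 8217 to 28386 CPM (median 18046) on control diet and from 5969 to 38156 CPM (median 10024) on HFD, the highest library being HFD_p53KO 7. Cholangiocyte and progenitor markers summed to medians of 172 CPM on control diet and 321 CPM on HFD. By gene, however, 0 of 13 tested were called, and 0 had an unadjusted p under 0.05. Of these markers 3 were positive and 10 negative (median log2 fold change -0.04), so the sum does not show a rise of the list.

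Among lists not described above, lysosomal lipid degradation genes fell in 3 of 20, Gm2a, Ctsa and Galc, and rose in 1, Psap. Complement and coagulation factors fell in 4 of 39, F7, C8b, Kng1 and Serpinc1, and rose in 1. Proteasome subunits (1 of 31 rose), circadian clock genes (2 of 20 fell, Clock and Rora) and unfolded protein and stress response genes (1 of 32 rose and 2 fell) gave 1 or 2 calls in a direction, where 4.64% of all genes rose and 5.07% fell, and nothing about these lists is read from them.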
